A study of Homo sapiens with 4 samples.

Results

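The classical HLA class II chains are the alpha and beta subunits of the DR, DQ and DP molecules, and they were followed here at every probe set annotated to 8 gene symbols (HLA-DRA, HLA-DRB1, HLA-DRB4, HLA-DRB6, HLA-DQA1, HLA-DQB1, HLA-DPA1 and HLA-DPB1). Of 54613 probe sets in the deposited table, 23 were annotated to 1 of these genes alone, with 8 for DR, 10 for DQ and 5 for DP. A further 6 were annotated to several genes that include one of them and are called ambiguous. The 29 probe sets were measured on 4 arrays of KM-H2, an established Hodgkin lymphoma cell line. The 2 arrays of the knockdown group came from cells transduced with a lentiviral pGIPZ vector (sh.FLJ27352) that expresses 1 hairpin against the BX648577 portion of the CIITA-BX648577 fusion transcript, and the 2 arrays of the control group came from transduced cells with a non-silencing control. All 4 shared the line, its culture and the labelling of RNA, and 1 hairpin in 1 line is all that was compared. The labels do not say that replicates came from separate cultures, so p-values measure only the spread between these arrays, which may be technical. In such bulk samples, fewer cells expressing a gene and less RNA per cell cannot be told apart.

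Class II molecules are pairs of an alpha and a beta chain that carry peptides from the endosomal pathway to the cell surface, where CD4+ T cells read them. B cells, dendritic cells and macrophages make them constitutively or on activation, and some Hodgkin lymphomas have lost them. Their genes share a promoter module, in which a W (or S) box, an X box and a Y box are bound by RFX, CREB and NF-Y, and this complex transcribes only once it has recruited CIITA, a coactivator that does not bind DNA itself. The comparison asks how transcript levels differ once the fusion that involves CIITA is targeted.

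The sequences behind this comparison are the hairpin that separates the groups and the promoter module that the class II chains share. The arms of the hairpin, which pair with each other at 21 of 22 positions, are given as designed, without capitals.
Arm before the loop: cgacagccacctcactatcaaa
Arm after the loop: tttgatagtgaggtggctgtct
The promoter windows below, of 80 bases each, come from RefSeq (GRCh38.p14), which holds entries for HLA-DRB1, HLA-DQA1, HLA-DQB1, HLA-DPA1 and HLA-DPB1. HLA-DRA, HLA-DRB4 and HLA-DRB6 are named only. Capitals mark the Y box core ATTGG and the X box fragment AGCAAC on the strand of the gene, and each window stops 5 bases after the ATTGG nearest the annotated start or, for HLA-DPA1, runs from 20 bases before AGCAAC.
HLA-DRB1, chr6:32589885-32589964, minus strand: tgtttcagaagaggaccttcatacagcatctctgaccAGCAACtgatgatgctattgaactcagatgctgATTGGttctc
HLA-DQA1, chr6:32637268-32637347, plus strand: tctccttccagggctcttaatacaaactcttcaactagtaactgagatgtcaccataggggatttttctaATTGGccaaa
HLA-DQB1, chr6:32666736-32666815, minus strand: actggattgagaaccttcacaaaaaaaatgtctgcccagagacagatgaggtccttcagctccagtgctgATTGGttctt
HLA-DPA1, chr6:33073689-33073768, minus strand: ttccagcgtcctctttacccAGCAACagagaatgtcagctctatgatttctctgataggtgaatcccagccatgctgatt
HLA-DPB1, chr6:33075821-33075900, plus strand: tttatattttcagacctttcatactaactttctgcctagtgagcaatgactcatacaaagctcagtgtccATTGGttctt

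ATTGG began 46 bases before the annotated start in HLA-DRB1, 68 in HLA-DQA1, 88 in HLA-DQB1 and 99 in HLA-DPB1. It is common, since 32.0% of 35114 human promoters hold it on either strand within 250 bases upstream of the start. The extended form TGATTGG, which contains it, was found in 6.62% of promoters and, among these 5 genes, in HLA-DRB1 and HLA-DQB1. AGCAAC was found in 10.3% of promoters on either strand, and stood 79 bases before the start of HLA-DRB1 and 99 before that of HLA-DPA1 in the 1 of its 2 entries shown. A match is a description of letters, and the absence of one says only that those letters are not in the window.

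Mean intensities of the arrays were 54.6 and 53.3 in knockdown and 54.2 and 53.7 in control. Medians were 8.37 and 8.12 in knockdown against 9.17 and 9.28 in control, so the knockdown arrays read slightly lower at the median. PIERCE2 is the present name of the gene to which FLJ27352 refers by general knowledge. Its probe set read 621 and 590 in knockdown and 880 and 947 in control, the direction the labels give. The group means were 605 and 914, so the lowering was partial. Its log2 difference of -0.58 passed the intensity-trend fit described below (limma adjusted p = 0.000141) but not the common-prior fit (0.273). CIITA read 60.7 and 53.6 in knockdown against 59.6 and 65.1 in control at its brightest probe set, with overlapping groups. Its log2 difference was -0.10 (limma adjusted p = 0.735 in the common-prior fit and 0.737 in the intensity-trend fit). Of 9 genes listed as markers of Hodgkin lymphoma cells, 8 had a probe set with a mean intensity of at least 50, including TNFRSF8 (CD30) and the actin-bundling gene FSCN1. Of the 7 B cell genes with a probe set of their own, 0 did. FSCN1 at 201564_s_at read 507 and 500 in knockdown and 644 and 618 in control. The intensity-trend fit called it lower (limma adjusted p = 0.017), as it did 0.872% of all tested probe sets, and the common-prior fit did not (0.311). The dimmer FSCN1 probe set 210933_s_at ran the other way (difference 0.35) and passed neither fit.

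Each difference given is the knockdown mean minus the control mean of log2(intensity + 16). Adding 16 shrinks the differences of dim probe sets, and ratios are of mean intensities. A probe set was tested where its mean over all arrays reached the median of all probe sets (an intensity of about 8.26), and all 27307 tested probe sets entered 1 limma fit. The main fit uses 1 prior variance for every probe set (the common-prior fit), and the second lets that prior follow brightness (the intensity-trend fit), each with Benjamini-Hochberg adjusted p-values and a threshold of 0.05. IDs ending in _x_at or _s_at mark probe sets whose probes can match related transcripts. An intensity depends on its probes, so a gap between 2 probe sets on an array says nothing about their genes' levels and is read only for how it differs between the groups.

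Probe sets of HLA-DRA and HLA-DRB1 read 1.33 to 1.41 times as high in knockdown as in control, those of the DQ genes had differences between 0.01 and 0.43 where tested, and the bright DP probe sets overlapped between groups. Knockdown arrays lay above both control arrays at 11 of the 23 single-gene probe sets, where this holds for 17.7% of all probe sets. They lay below both at 1, a dim one, where 12422 of all 54613 probe sets did so. Among the 16 that were tested, both knockdown arrays lay above at 10, against 23.3% of tested probe sets. The median difference over the 23 was 0.09, with 17 above 0 and 6 below, beside a median of -0.02 over all probe sets, 44.4% of which lay above 0. The median over the 23 moved both ways without 1 array, up to 0.16 without control replicate 2 and below 0.09 at its lowest. Over the 16 tested it was 0.23, beside -0.0037 over all tested probe sets. It was 0.30 with only those of a mean intensity of at least 50. With 1 probe set per gene it was 0.35, and with a pseudocount of 1 it was 0.21. The common-prior fit called 0 of the 16 tested class II probe sets, and it called 0% of all tested probe sets higher and 0.00732% lower. Without adjustment, 7 of the 16 had a p under 0.05 in that fit, each with knockdown on top, where 6.66% of tested probe sets did so with knockdown on top and 6.65% with it below. The intensity-trend fit called 5 of the 16 higher and 0 lower, where it called 1.29% of all tested probe sets higher, 0.872% lower and so 2.16% either way. These 5 were HLA-DRA at both its probe sets, HLA-DRB1, 1 probe set of HLA-DRB6 and 1 of HLA-DQB1. By kind, 4 were among the 9 tested _x_at or _s_at probe sets (median difference 0.30). The other was among the 7 tested probe sets of neither kind (median 0.17). Those of HLA-DRB1, HLA-DRB6 and HLA-DQB1 can match related transcripts, so the 5 need not be separate results for each gene. Over all tested probe sets the intensity-trend fit called 353 higher and 238 lower. With each array centred on its median it called 738 higher and 135 lower. Brightness bears on these shares. Of 2581 probe sets with a mean intensity of at least 200, 5% were called higher by the intensity-trend fit and 33.2% had both knockdown arrays on top, and of the 9 class II probe sets this bright these were 4 and 5.

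**Figure D1:**
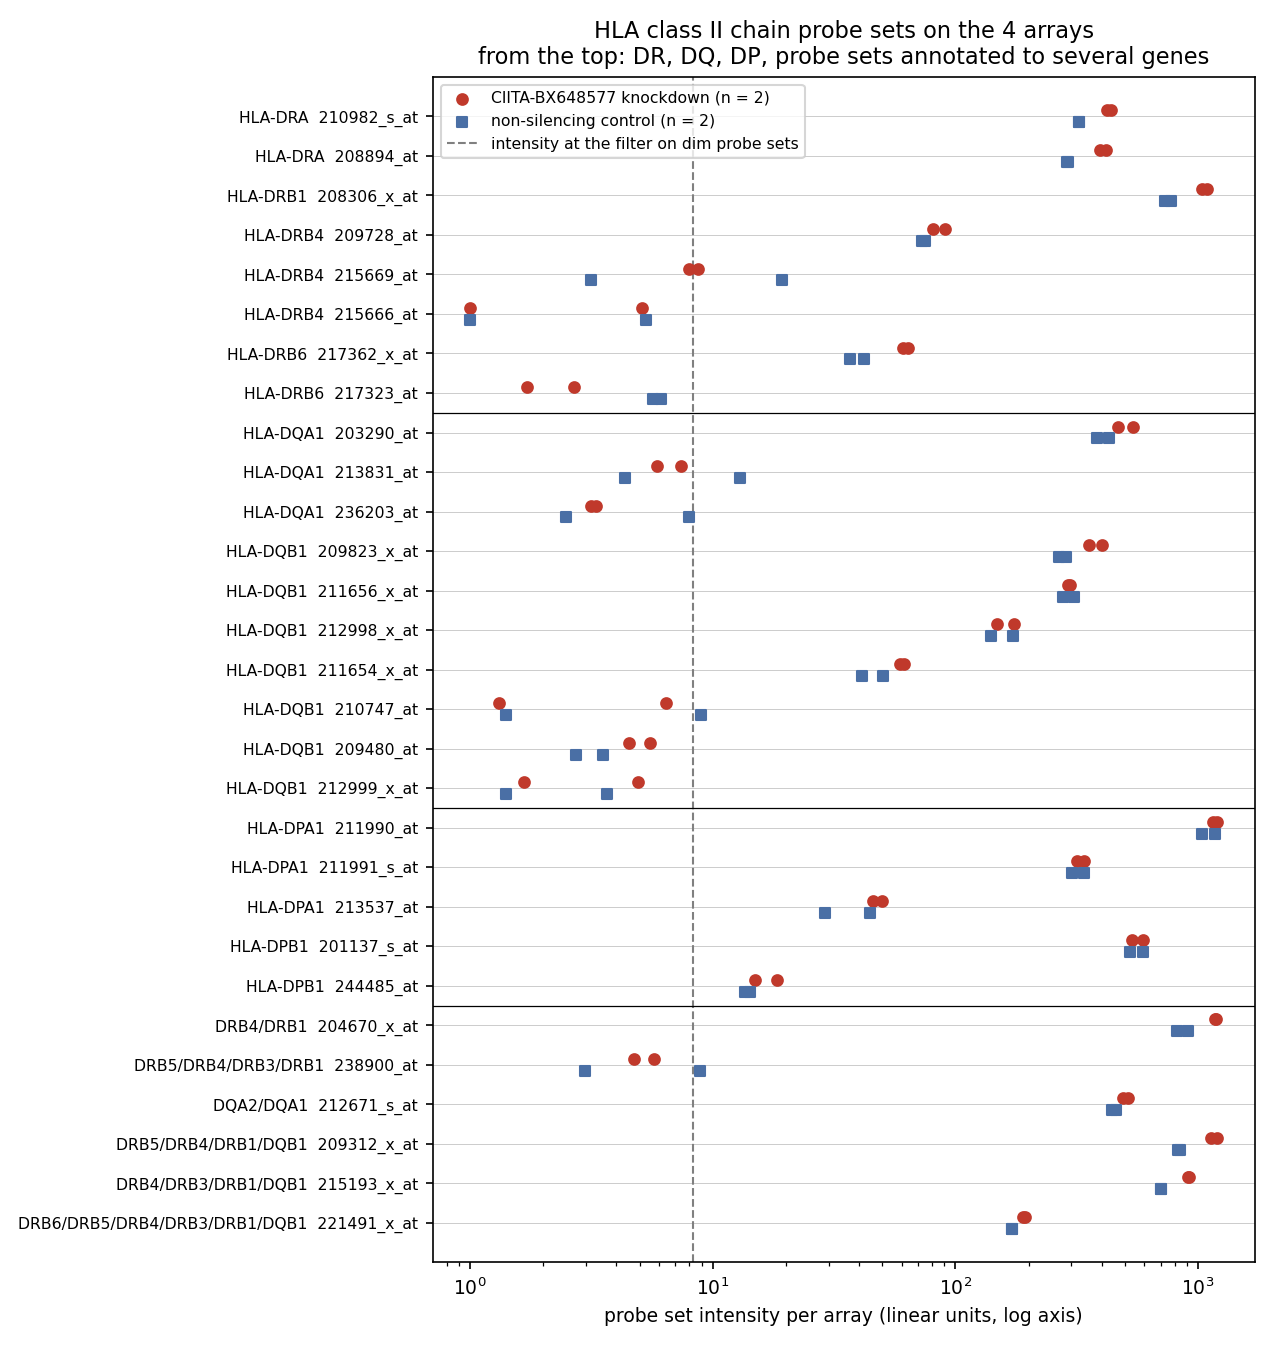
Intensity of each of the 29 class II probe sets on each array, on a logarithmic axis in linear intensity units, with knockdown as circles above control as squares (n = 2 each). The 5 brightest single-gene DR rows have knockdown circles to the right of the control squares, the brightest DP rows overlap, and most rows left of the dashed line (an intensity of 8.26) mix both groups.

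HLA-DRA encodes the alpha chain that every DR molecule carries. At probe set 208894_at it read 394 and 415 in knockdown against 291 and 289 in control. Both knockdown arrays were higher, and the gap between the groups was several times that between replicates. The group means were 405 ± 14.8 and 290 ± 1.32 (SD, n = 2 each), a ratio of 1.40 and a log2 difference of 0.46 (SE 0.11, 95% interval 0.21 to 0.71). Probe set 210982_s_at showed the same picture, with 423 and 437 in knockdown and 323 and 324 in control and a difference of 0.39 (SE 0.11, interval 0.15 to 0.64). The common-prior fit passed neither (adjusted p = 0.285 for both), while the intensity-trend fit passed both (adjusted p = 0.00324 and 0.00791). Without knockdown replicate 2 the difference of probe set 210982_s_at was 0.37, close to its value over all arrays, though its call in the intensity-trend fit was lost. Among the 2581 bright probe sets, 29 had a larger difference than 208894_at and 52 a larger one than 210982_s_at.

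HLA-DRB1 encodes the main polymorphic DR beta chain. Its single probe set of its own, 208306_x_at, read 1033 and 1088 in knockdown and 729 and 773 in control. The groups did not overlap, and the means of 1061 ± 39.0 in knockdown and 751 ± 31.4 in control gave a ratio of 1.41. The difference was 0.49 (SE 0.11, interval 0.23 to 0.75), which passed the intensity-trend fit (adjusted p = 0.000431) but not the common-prior fit (0.285). It passed the intensity-trend fit under each of 8 alternatives, with adjusted p-values up to 0.00595, and 20 of the 2581 bright probe sets had a larger difference. Which DRB gene it reads is uncertain. The platform annotation gives HLA-DRB1, while the target accession of the probe set is listed under HLA-DRB4 in RefSeq, and its ID marks probes that can match related transcripts.

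HLA-DRB4 encodes a further DR beta chain that only some haplotypes carry, and 0 of its 3 probe sets passed either fit. The brightest, 209728_at, read 80.5 and 90.6 in knockdown and 74.8 and 73.0 in control. Knockdown was higher on both arrays, but the difference of 0.17 had an interval of -0.09 to 0.44 and passed neither fit (adjusted p = 0.533 and 0.453). Probe set 215669_at was dim, with 8.67 and 7.99 in knockdown between the control values of 19.2 and 3.15. Probe set 215666_at lay below the filter, at 1.00 and 5.10 in knockdown against 1.00 and 5.31 in control.

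HLA-DRB6 is a pseudogene of the DRB family that is transcribed but makes no chain. Its probe set 217362_x_at read 64.04 and 60.52 in knockdown against 41.85 and 36.93 in control, without overlap and with a ratio of 1.58. The difference of 0.50 (SE 0.11, interval 0.24 to 0.76) passed the intensity-trend fit with an adjusted p of 0.0356 and not the common-prior fit (0.285). That call was lost without control replicate 2 (adjusted p = 0.11), without knockdown replicate 1 (0.182) or without knockdown replicate 2 (0.163), with differences between 0.44 and 0.53, and with quantile normalization (0.0537, difference 0.47). Its second probe set, 217323_at, lay below the filter and ran the other way, at 2.69 and 1.71 in knockdown and 5.69 and 6.14 in control. The sequence of HLA-DRB6 is close to that of other DRB genes, so the level of the pseudogene itself is uncertain.

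**Figure D2:**
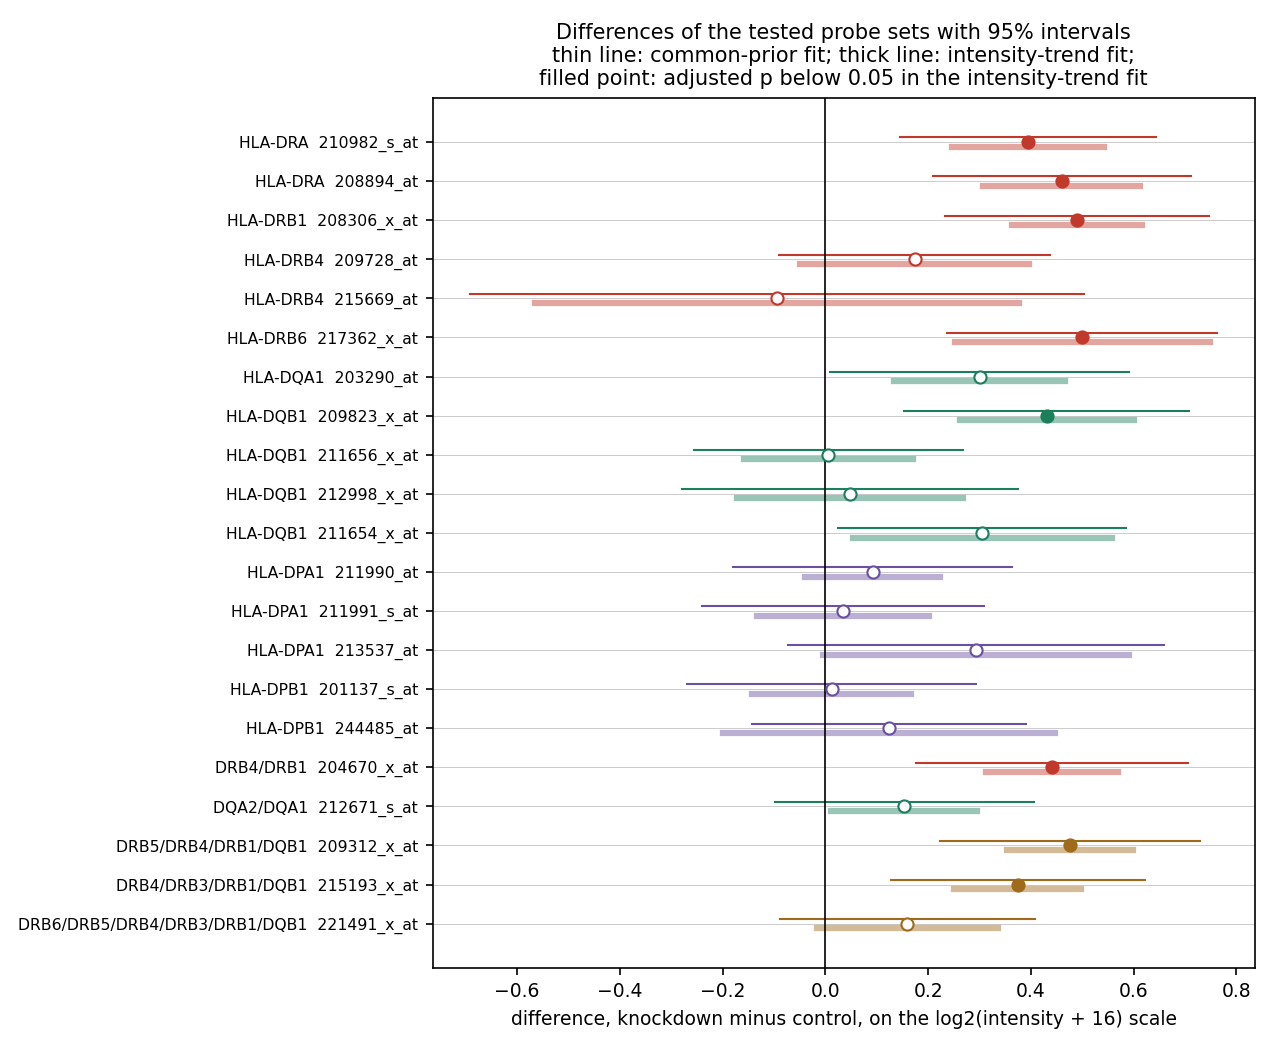
Difference between knockdown and control (horizontal axis, log2(intensity + 16)) for the 21 tested class II probe sets, with DR in red, DQ in green, DP in purple and probe sets annotated to both DR and DQ in brown. Thin lines are 95% intervals of the common-prior fit and thick lines those of the intensity-trend fit, and the 8 filled points, 5 of 1 gene and 3 ambiguous, passed the intensity-trend fit.

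For DQ, 1 of 5 tested single-gene probe sets passed the intensity-trend fit. HLA-DQA1, which encodes the DQ alpha chain, read 469 and 539 in knockdown and 428 and 383 in control at probe set 203290_at. The knockdown arrays were on top, but the replicates of each group lay far enough apart that the difference of 0.30 (SE 0.12, interval 0.01 to 0.59) had adjusted p-values of 0.366 in the common-prior fit and 0.0568 in the intensity-trend fit. It passed the intensity-trend fit with 1 probe set per gene (adjusted p = 0.0483), with median centring (0.0235), without control replicate 1 (0.0451) or without knockdown replicate 1 (0.00971). It did not with quantile normalization (0.0882), nor without control replicate 2 (0.23, difference 0.22) or knockdown replicate 2 (0.512, difference 0.20). The other HLA-DQA1 probe sets, 213831_at and 236203_at, lay below the filter with overlapping groups.

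HLA-DQB1, the DQ beta chain gene, had 7 probe sets of its own, 4 of them tested and all 4 of the cross-matching kind. Probe set 209823_x_at read 354 and 402 in knockdown against 266 and 286 in control. The groups were apart, with means of 378 ± 34.2 and 276 ± 13.9, a ratio of 1.37 and a difference of 0.43 (SE 0.12, interval 0.15 to 0.71). It passed the intensity-trend fit (adjusted p = 0.00953, against 0.285 in the common-prior fit), but not without knockdown replicate 2 (0.127, difference 0.34). Probe set 211654_x_at was also higher on both knockdown arrays, with 61.2 and 59.1 in knockdown and 41.4 and 50.3 in control, and its difference of 0.30 passed neither fit (adjusted p = 0.347 and 0.205).

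The other bright probe sets of HLA-DQB1 showed no such gap. Probe set 211656_x_at read 296 and 292 in knockdown, inside the control values of 278 and 308. Its difference was 0.01 with an interval of -0.26 to 0.27, and the narrower interval of the intensity-trend fit, -0.16 to 0.17, does not reach the value of 209823_x_at. Probe set 212998_x_at read 148 and 175 in knockdown and 140 and 172 in control (difference 0.05), where replicates differed more than groups. Set against 211656_x_at within each array, 209823_x_at stood at 0.25 and 0.44 in knockdown and -0.06 and -0.10 in control on the log2 scale, a change of 0.43. This pair was chosen for its difference, so the change is a description with no test. The remaining probe sets, 210747_at, 209480_at and 212999_x_at, lay below the filter.

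All 5 DP probe sets lay above the filter, and the bright ones overlapped between the groups. HLA-DPA1, the DP alpha chain gene, read 1153 and 1200 in knockdown and 1038 and 1173 in control at 211990_at. The groups overlapped, and the difference was 0.09 (SE 0.12, interval -0.18 to 0.36, adjusted p = 0.764 and 0.514 in the common-prior and intensity-trend fits). Probe set 211991_s_at read 317 and 339 in knockdown and 301 and 339 in control (difference 0.03, interval -0.24 to 0.31). Probe set 213537_at read 45.9 and 49.8 in knockdown and 44.4 and 28.9 in control, and its difference of 0.29 rests on 1 low control array, being 0.08 without control replicate 2.

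HLA-DPB1, the DP beta chain gene, read 534 and 591 in knockdown and 526 and 590 in control at 201137_s_at. These groups lay on top of each other, with a difference of 0.01 (SE 0.12, interval -0.27 to 0.29, or -0.14 to 0.17 in the intensity-trend fit). Its dimmer probe set 244485_at read 14.9 and 18.4 in knockdown against 13.6 and 14.2 in control, a difference of 0.12 that passed neither fit. Of the 5 DP probe sets 0 passed the intensity-trend fit and 0 had an unadjusted p below 0.05 in the common-prior fit, although all 5 lay above 0.

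**Figure D3:**
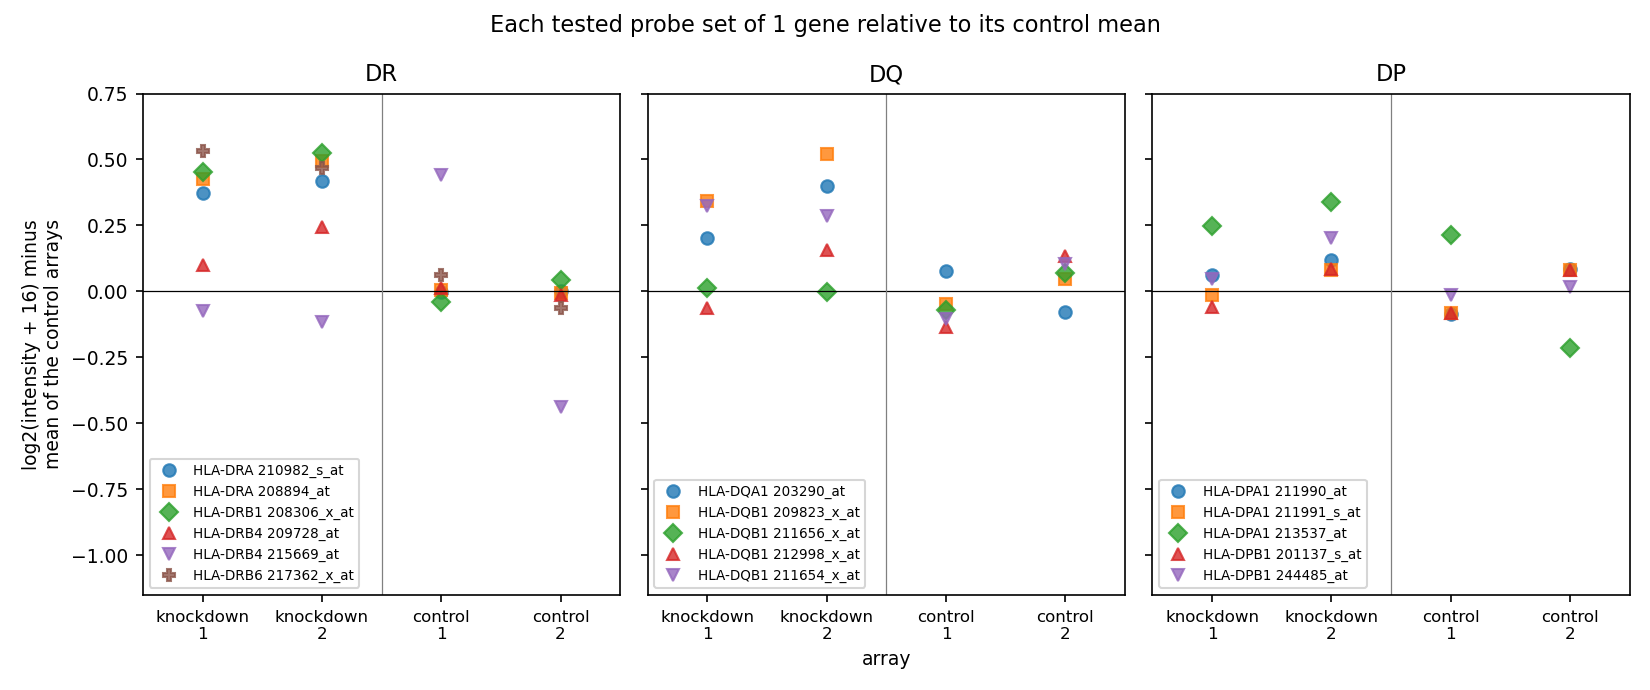
Each tested class II probe set of 1 gene relative to the mean of its control arrays (vertical axis, log2(intensity + 16)), by array, in panels for DR, DQ and DP, with knockdown left and control right. In the DR panel 4 probe sets lie between 0.37 and 0.53 on both knockdown arrays, the DQ probe sets spread from near 0 to 0.52, and in the DP panel the bright probe sets stay within 0.12 of 0.

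Averaged over tested single-gene probe sets per array, the DR difference was 0.32 over 6 probe sets, the DQ difference 0.22 over 5 and the DP difference 0.11 over 5. The DR mean minus the DP mean stood at -0.21 and -0.28 in knockdown and -0.36 and -0.54 in control, so that DR moved 0.21 further than DP with no overlap between groups. DR minus DQ changed by 0.10, with overlapping groups. DQ minus DP changed by 0.11, also with no overlap (0.16 and 0.16 in knockdown, 0.01 and 0.10 in control). The exact two-sided permutation p was 0.333 for DR against DP and for DQ against DP, and 0.667 for DR against DQ (0.5, 0.5 and 0.667 adjusted over the 3), in a design that cannot go below 0.333. With only the brightest probe set per gene DR moved 0.34 further than DP, without _x_at and _s_at probe sets 0.01, and without control replicate 2 0.12. The order of the 3 is thus a description.

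Of the 6 ambiguous probe sets, 3 had differences in the range of the HLA-DRA and HLA-DRB1 ones or just below it, and 3 had smaller ones. Probe set 209312_x_at, annotated to HLA-DRB5, HLA-DRB4, HLA-DRB1 and HLA-DQB1, read 1127 and 1199 in knockdown and 840 and 823 in control, a difference of 0.48. Probe set 204670_x_at, annotated to HLA-DRB4 and HLA-DRB1, read 1170 and 1189 in knockdown and 820 and 912 in control, a difference of 0.44, and its target accession is listed under HLA-DRB5 in RefSeq. Probe set 215193_x_at, annotated to HLA-DRB4, HLA-DRB3, HLA-DRB1 and HLA-DQB1, read 914 and 912 in knockdown and 701 and 700 in control, a difference of 0.37. These 3 were on top in knockdown and passed the intensity-trend fit in the main setting and in 7 alternatives each, with adjusted p-values up to 0.0184, but not the common-prior fit (0.285 each). Probe set 221491_x_at, annotated to 5 DRB genes and HLA-DQB1, read 194 and 190 in knockdown against 171 and 170 in control, where replicates were close and the difference of 0.16 passed neither fit. The HLA-DQA2 and HLA-DQA1 probe set 212671_s_at read 514 and 491 in knockdown and 458 and 442 in control (difference 0.15, adjusted p = 0.267 in the intensity-trend fit). The last, 238900_at, lay below the filter.

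**Figure D4:**
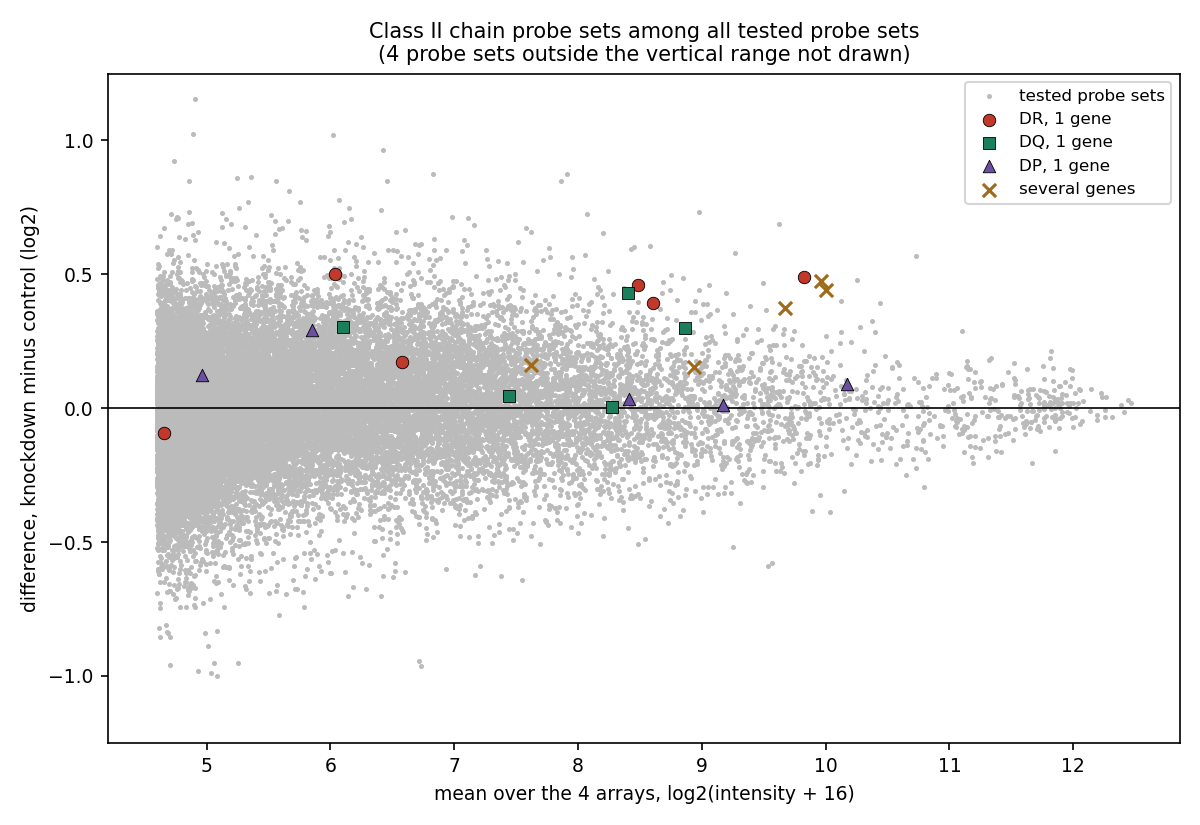
Difference between knockdown and control (vertical axis, log2) against the mean over the 4 arrays (horizontal axis, log2(intensity + 16)) for the tested probe sets in grey, with class II chains in colour. The spread of the grey points narrows with brightness, HLA-DRA, HLA-DRB1 and 3 ambiguous probe sets lie near its upper edge, and the bright DP triangles lie near 0.

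Genes that serve class II presentation without being chains were counted from 2 lists. Of 22 single-gene probe sets for 9 genes of peptide loading, 19 were tested, the common-prior fit called 0 and the intensity-trend fit called 0 higher and 1 lower, a probe set of the protease gene CTSB, where it called 0.872% of all tested probe sets lower. That probe set, 213275_x_at, read 39.9 and 41.4 in knockdown and 70.0 and 57.7 in control (difference -0.49), while the 4 other CTSB probe sets lay between -0.08 and 0.27. CD74, the invariant chain that occupies the groove until peptide is loaded, at its brightest probe set read 1885 and 1834 in knockdown and 1767 and 1741 in control (difference 0.08, adjusted p = 0.764 in the common-prior fit). The median of the loading list was 0.01. Of 31 probe sets for the class II promoter complex (CIITA, RFX5, RFXAP, RFXANK, NFYA, NFYB, NFYC and CREB1) 25 were tested and 0 passed either fit, beside 2.16% of all tested probe sets in the intensity-trend fit, with a median of 0.08 over the 31 and 2 at an unadjusted p below 0.05 in the common-prior fit. Related HLA-D loci with a probe set of their own (HLA-DQB2, HLA-DPA2 and HLA-DPB2) lay below the filter.

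Class I chains, the heavy chains and B2M that present cytosolic peptides, gave a median of 0.14 over 20 tested probe sets, 19 of which lay above 0. Both knockdown arrays were on top at 15 of the 20, against 23.3% of tested probe sets. The intensity-trend fit called 5 of them higher, among HLA-B and HLA-G, against 1.29% of tested probe sets, and the common-prior fit 0. All 5 were _x_at probe sets, whose probes can match related transcripts, so they need not be separate results for HLA-B and HLA-G. The class I probe sets that were neither _x_at nor _s_at, of HLA-E, HLA-F and B2M, had overlapping groups, and those of HLA-F and B2M were dim. The shares of class I and class II probe sets called were not tested against each other. Of 13 class I probe sets with a mean intensity of at least 200, 3 were called higher by the intensity-trend fit, beside 4 of 9 for class II and 5% of all probe sets this bright.

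Markers of other cell types that carry or meet class II were mostly dim. Of 7 T cell genes with a probe set of their own, 5 lay below the filter at their brightest probe set, and the summed level of the list was 313 and 265 in knockdown against 220 and 224 in control. CD3D, a T cell receptor subunit, made up most of it with 253 and 225 in knockdown and 194 and 183 in control (adjusted p = 0.06 in the intensity-trend fit). Sums for monocyte and macrophage genes were 130 and 131 in knockdown and 125 and 132 in control, with 5 of 7 below the filter. CSF1R, the only gene of that list with a mean intensity of at least 50, made up most of them. It read 82.2 and 87.8 in knockdown and 84.8 and 75.7 in control, with overlapping groups. Dendritic cell genes summed to 91.9 and 91.8 in knockdown and 81.1 and 85.3 in control, with 0 of 6 at a mean intensity of 50, and fibroblast and endothelial genes to 182 and 149 in knockdown and 183 and 219 in control. The part of the T cell and dendritic cell lists in the class II differences was not tested.

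Probe sets of other genes were ranked by how like their course over the 4 arrays was to that of HLA-DRA at 210982_s_at. The search covered 7835 with 1 gene and a mean intensity of at least 50, by the root mean square difference of centred log2 values. Genes on the pathway and marker lists were left out of it, so a listed gene can lie as near as those named. The nearest outside the lists were TCL1A (0.01), CDKN1A (0.0138), the cohesin gene RAD21 (0.0151), ARF3 (0.0154) and SINHCAF (0.018). TCL1A, a coactivator of AKT signalling expressed in B cells, read 575 and 603 in knockdown and 448 and 443 in control. CDKN1A, whose product p21 blocks cyclin-dependent kinases, read 180 and 189 in knockdown and 136 and 139 in control. The second HLA-DRA probe set stood at 0.0345, with 38 of the 7835 nearer. HLA-DRB1 stood at 0.0558 with 169 nearer and 209823_x_at of HLA-DQB1 at 0.0597 with 201 nearer. Among the ambiguous ones, 215193_x_at stood at 0.0205 with 8 nearer and 209312_x_at at 0.0452 with 92 nearer.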

How the data were processed

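Per the labels' protocols, total RNA of 4 transduced KM-H2 samples was made into biotinylated cRNA by the Affymetrix 1-cycle method and hybridised to 1 array each. The authors deposited linear probe set intensities, whose summarisation and scaling are not given in the sources used here. Genes were named from the platform annotation, which can be old and in which 41091 probe sets have 1 gene, 1801 several and 11721 none. Values became log2(intensity + 16). Array medians on that scale spanned 0.07, below the 0.2 set as the limit for centring, so none was applied. Probe sets below the median of all means were left out, and limma 3.58.1 (R 4.3.3) compared the groups with lmFit and eBayes over 27307 probe sets, with 1 prior variance (common-prior fit) or a prior following brightness (intensity-trend fit). With 2 arrays per group, the number of arrays limits precision, and the fit has 2 residual degrees of freedom. Fits were run on simulated data drawn from the fitted intensity-trend prior, which cannot show how well that prior suits these arrays. The text names every class II probe set, genes of fixed pathway and marker lists, and the 5 probe sets outside these most like HLA-DRA. DR, DQ and DP means were compared by exact permutation over the arrays. The pair of HLA-DQB1 probe sets and the limit of 200 for bright probe sets were chosen after values were seen. Members and lists were chosen with earlier results of these data known. Alternatives changed the pseudocount, scaling, filter, prior, probe sets per gene, threshold, replicate block and arrays included.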

Additional observations from a re-analysis of the deposited data

How the results depend on the processing

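The common-prior fit called 0 class II probe sets, and the count was 5 with a pseudocount of 64, 5 with only probe sets of a mean intensity of at least 50, 5 in the intensity-trend fit and 6 in that fit with a replicate block. These 3 sets of 5 held the same 5 probe sets. The count ranged from 0 to 6 over fits without 1 array, 0 in each common-prior one. The replicate block left it at 0 in the common-prior fit. Same-numbered replicates did not deviate together (r = -0.01 across tested probe sets, which are not independent), and no label pairs them. With the replicate block the intensity-trend fit also called HLA-DQA1 203290_at (adjusted p = 0.00377). Starting from 5 in the intensity-trend fit, it ranged from 2 to 6 without 1 array, the 2 (HLA-DRB1 and HLA-DRA 208894_at) being without knockdown replicate 2, and from 4 to 6 under scaling, a replicate block, 1 probe set per gene and a threshold of 0.10. All tested probe sets called by that fit numbered 591 (353 higher, 238 lower), against 1462 with the block, 873 with median centring (738 higher, 135 lower), 458 with quantile normalization (247 higher, 211 lower) and 195 without knockdown replicate 2. With the common prior these were 2, against 409 at a mean intensity of at least 50 and 694 with a pseudocount of 64. The scaling fits of the intensity-trend kind and 1 probe set per gene in it were added after the data were seen.

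The median over the 23 probe sets, 0.09, was 0.21 with a pseudocount of 1, 0.30 at a mean intensity of at least 50, 0.35 with 1 probe set per gene and 0.23 over tested probe sets (added after the data were seen), and 0.0631 to 0.16 without 1 array. DR minus DQ reversed to -0.12 without _x_at and _s_at probe sets, and ranged from -0.0328 to 0.24 without 1 array. The DR minus DP change ranged from 0.12 to 0.30 and DQ minus DP from 0.06 to 0.15 without 1 array. Directions reversed at 5 of 21 tested probe sets. For 215669_at (HLA-DRB4), at -0.09, the value was 0.0259 with a pseudocount of 1, and it ranged from -0.53 to 0.35 without 1 array. For 211656_x_at (HLA-DQB1) it was -0.0105 with quantile normalization in either fit, and from -0.0641 (without control replicate 1) to 0.0751 without 1 array, at -0.0038 without knockdown replicate 1. The ranges without 1 array were -0.0859 to 0.18 for 212998_x_at (HLA-DQB1), -0.0479 to 0.12 for 211991_s_at (HLA-DPA1) and -0.0687 to 0.0932 for 201137_s_at (HLA-DPB1), the lowest without control replicate 1. Without knockdown replicate 2 these 3 stood at -0.0627, -0.0131 and -0.0591. Values without 1 array were the same in both fits. The cause of these moves was not tested.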
